A study of Homo sapiens with 2 samples.

Results

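The 10 genes described here are VIM, FN1, SPARC, TNC, THBS1, TGFBI, POSTN, FBN1, LOX and BGN, a mesenchymal marker and non-collagen genes of the extracellular matrix. They were taken as the rows of both count tables whose Ensembl identifier carries one of these symbols in GENCODE release 44, and all 10 were found among 58735 rows. RNA came from MCF10a-Snail-ER cells, a derivative of the non-tumorigenic human mammary epithelial line MCF10a that stably expresses the repressor Snail fused to the estrogen receptor. Tamoxifen at 100 nM had been given for 1 day. It switches the fusion on, and epithelial-to-mesenchymal transition (EMT) is the process it is meant to begin. Both libraries carry the fusion and the treatment. One library was direct RNA sequencing of native polyadenylated strands on an Oxford Nanopore MinION, and the other was an Illumina TruSeq stranded mRNA library, made from fragmented and amplified RNA. The series calls the RNA of the 2 libraries matched. Each platform has 1 library and untreated cells were not sequenced here, so no value below is a response to Snail. Every interval and test covers counting error in these 2 libraries only.

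Vimentin, the product of VIM, is an intermediate filament protein of mesenchymal cells, and its appearance in epithelial cells is a classic sign of EMT. Fibronectin, from FN1, is a large secreted glycoprotein that integrins assemble into fibrils. Matricellular proteins such as SPARC, tenascin-C (TNC), thrombospondin-1 (THBS1), TGFBI and periostin (POSTN) are secreted into the matrix and modulate adhesion and growth factor signalling more than they bear load. Fibrillin-1 (FBN1) builds microfibrils, lysyl oxidase (LOX) cross-links collagen and elastin, and biglycan (BGN) is a small leucine-rich proteoglycan. Basal mammary cells in culture commonly express some of these genes without any inducer.

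Depth was 403235 counts by Nanopore and 191741714 by Illumina. A single count was therefore worth 2.48 CPM (counts per 1000000 counts of the library) by Nanopore and 0.00522 CPM by Illumina, and the smallest level taken as measurable, 3 counts, was 7.44 CPM and 0.0156 CPM. All 10 markers of basal mammary epithelium that were checked had counts in both libraries. Their summed level was 3760 CPM by Nanopore and 3487 CPM by Illumina. Much of it came from KRT5 (1686 and 1447 CPM), KRT14 (799 and 611 CPM) and KRT17 (533 and 290 CPM). Others were scarce by Nanopore, where TP63 had 5 counts (12.4 CPM) and CDH1 and EPCAM had 3 each. The 8 fibroblast markers summed to 27.3 and 34.1 CPM, most of it decorin (DCN). The 4 endothelial markers summed to 2.48 and 6.61 CPM, and the 4 immune markers to 12.4 and 11.1 CPM. Nearly all of the immune sum was CD14, with 5 Nanopore and 2100 Illumina counts, while PTPRC had 0 and 2. In a bulk library few expressing cells and little RNA per cell cannot be told apart.

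The 10 genes together held 1018 Nanopore counts, 0.252% of that library, and 707444 Illumina counts, 0.369%. VIM alone made up 68.8% of their Nanopore counts and 49.5% of their Illumina counts. Nanopore detected 8 of the 10 genes, all but FBN1 and POSTN, and Illumina detected all 10. VIM stood at percentile 99.5 of the genes detected by Nanopore and 99.8 of those detected by Illumina, and POSTN at percentile 55.9 of the Illumina genes.

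**Figure D1:**
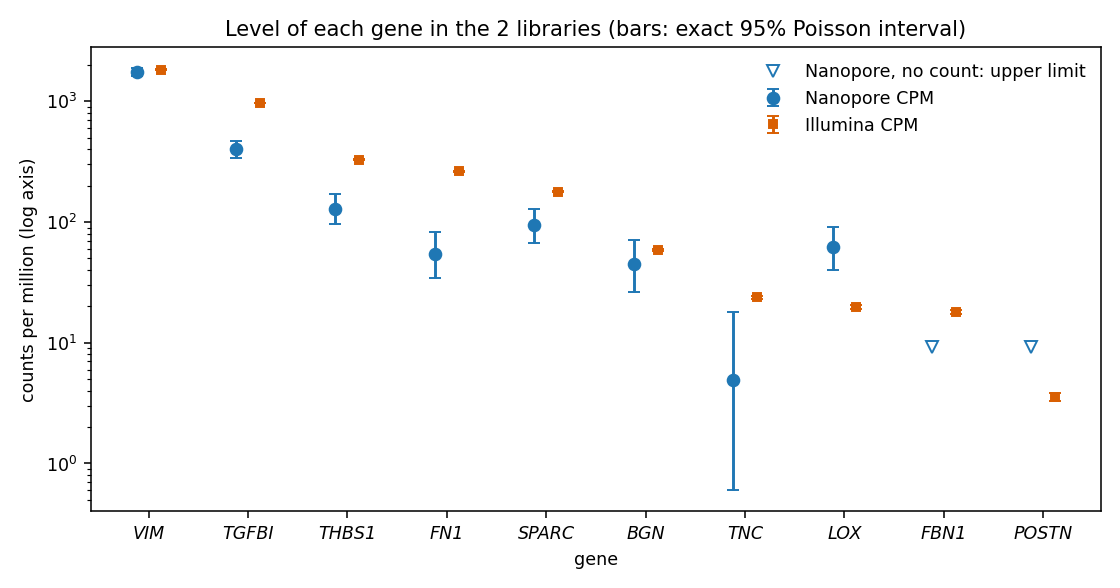
Level of each gene in CPM on a log axis, by Nanopore (circles) and Illumina (squares), with exact 95% Poisson intervals; open triangles mark the upper limit of 9.15 CPM for the 2 genes without a Nanopore count. The circle lies below the square for TGFBI, THBS1, FN1, SPARC and TNC, close to it for VIM and BGN, and above it for LOX.

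Nanopore and Illumina levels were compared on 2 scales. The first sets Nanopore CPM against Illumina CPM, as log2 of the ratio with 1 CPM added to each level, which understates the difference of rare genes. A two-sided exact conditional binomial test on the 2 counts was run for 12414 genes, those averaging 5 CPM or more over both libraries, with Benjamini-Hochberg adjustment over all of them. A gene under 5 CPM in 1 library could pass only if higher in the other, so the filter set its direction in CPM. That held for TNC and FBN1, both under 5 CPM by Nanopore. POSTN was below the mean of 5 CPM, so 9 of the 10 genes were tested. Of these 9, 6 were higher by Illumina at an adjusted p under 0.05 (FN1, SPARC, TNC, THBS1, TGFBI and FBN1), where 27.2% of all tested genes were. LOX was the 1 gene higher by Nanopore, where 20.2% of all tested genes were. With the 1 CPM added, 3 of the 9 had a ratio of at least 4-fold higher by Illumina (FN1, TNC and FBN1), against 8.14% of all tested genes. FBN1 had no Nanopore count, so its place among them rests on that added value, and its bound given below is under 4-fold. TNC had 2 Nanopore counts and fell under 4-fold with 5 CPM added (log2 ratio −1.53). At least 4-fold higher by Nanopore were 0 of the 9, against 12.9%. As a median, the log2 ratio came to −1.28 over the 9 genes and to −0.42 over all tested genes. The second scale divides the Illumina counts by gene length, because a long transcript gives more fragments per molecule while a direct RNA read stands for 1 strand. Several directions changed on that scale, as given below.

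VIM (ENSG00000026025, chromosome 10, 17228241 to 17237593, plus strand, hg38) was the most abundant of the 10 genes. It had 700 Nanopore counts, or 1736 CPM (exact 95% Poisson interval 1610 to 1869), and 350409 Illumina counts, or 1828 CPM (1821 to 1834). The levels differed by less than counting error, with a log2 ratio of −0.07 and an exact binomial adjusted p of 0.277 (Benjamini-Hochberg). The Nanopore/Illumina fold was 0.950, with an exact interval of 0.881 to 1.02. The 5 other scalings all put this ratio above 0, from 0.014 with TMM factors to 0.86 with division by union exonic length. The start of VIM lies inside the body of VIM-AS1, a long non-coding RNA gene on the opposite strand whose counts are given further on. The 250 bases before the VIM start site, plus strand, from RefSeq's window on GRCh38.p14, are shown because they lie in an intron of that gene and because the hexamers bound by Snail were searched in such windows:
VIM upstream, chr10:17227991-17228240: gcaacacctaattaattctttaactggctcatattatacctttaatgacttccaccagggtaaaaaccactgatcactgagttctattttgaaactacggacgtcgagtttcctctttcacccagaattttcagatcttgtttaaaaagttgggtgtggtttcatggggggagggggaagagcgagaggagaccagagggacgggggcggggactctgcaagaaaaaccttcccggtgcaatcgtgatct

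Snail and related zinc finger factors bind the hexamer CAGGTG, or CACCTG when read on the other strand. RefSeq windows of 300 bases, 250 before and 50 after a start site, were found for all 10 genes, 12 windows in all, since LOX has 3. Neither hexamer was present in the VIM window or in the windows of the 8 other genes with 1 start site. The windows of the 2 downstream LOX starts overlap, and both held CACCTG at the same position, so it is 1 site. Among all 35116 windows in that table, 20.6% held at least 1 of them. By gene, 24.1% had such a window, against 1 of the 10 genes here. A match is a string of letters and not a bound site, and the counts hold no untreated sample to set beside it. The stretch of LOX with the hexamer is shown with CACCTG in capitals, minus strand:
LOX, chr5:122077268-122077367: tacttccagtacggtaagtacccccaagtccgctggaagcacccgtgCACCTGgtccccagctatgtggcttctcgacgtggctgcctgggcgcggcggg

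FN1 (ENSG00000115414, chromosome 2, 215360440 to 215436073, minus strand) had 22 Nanopore counts, or 54.6 CPM (exact 95% interval 34.2 to 82.6), and 50517 Illumina counts, or 263 CPM (261 to 266). It was 4.83-fold lower by Nanopore, with an exact interval of 3.19 to 7.71 and an exact binomial adjusted p of 9.92e-22 (Benjamini-Hochberg). FN1 is also one of the longest transcripts of the set. Its longest coding transcript has 8708 bases in 47 exons, and 27 transcripts are annotated. After division of the Illumina counts by the length of that transcript, the 2 levels differed by less than counting error (fold 1.01, exact interval 0.635 to 1.53).

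Among the matricellular genes, SPARC (ENSG00000113140, chromosome 5, 151661096 to 151686975) had 38 Nanopore counts, 94.2 CPM (exact 95% interval 66.7 to 129), and 34079 Illumina counts, 178 CPM (176 to 180). Its level was 1.89-fold lower by Nanopore (1.37 to 2.67), with an exact binomial adjusted p of 8.21e-05. THBS1 (ENSG00000137801, chromosome 15, 39581079 to 39599466) had 52 Nanopore counts, 129 CPM (96.3 to 169), and 63050 Illumina counts, 329 CPM (326 to 331). Thrombospondin-1 binds CD47 and CD36 and can activate latent TGF-beta. Its level was 2.55-fold lower by Nanopore (1.94 to 3.41), with an exact binomial adjusted p of 2.67e-14.

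TGFBI (ENSG00000120708, chromosome 5, 136028988 to 136063818), a TGF-beta-induced protein that binds integrins, was second to VIM in both libraries. It had 161 Nanopore counts, 399 CPM (exact 95% interval 340 to 466), and 185644 Illumina counts, 968 CPM (964 to 973). The level was 2.42-fold lower by Nanopore (2.08 to 2.85), with an exact binomial adjusted p of 6.17e-38. Its body overlaps no other annotated gene, as is also the case for FN1 and POSTN.

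TNC and POSTN were the scarce matricellular genes. TNC (ENSG00000041982, chromosome 9, 115019575 to 115118207) had 2 Nanopore counts, 4.96 CPM (exact 95% interval 0.601 to 17.9), and 4557 Illumina counts, 23.8 CPM (23.1 to 24.5). The Nanopore/Illumina fold was 0.209, with an exact interval of 0.0253 to 0.754 and an exact binomial adjusted p of 0.0191. POSTN (ENSG00000133110, chromosome 13, 37562583 to 37598844) had 0 Nanopore counts, which allows up to 9.15 CPM, and 680 Illumina counts, 3.55 CPM (3.28 to 3.82). At its Illumina share of the library, 1.43 Nanopore counts would be drawn on average, so the absence of POSTN was within what this depth can show. Periostin is known mainly from fibroblasts and wound tissue.

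FBN1 and LOX, a microfibril gene and a cross-linking enzyme, had the lowest and the highest ratio of the 9 tested genes. FBN1 (ENSG00000166147, chromosome 15, 48408313 to 48645721) had 0 Nanopore counts and 3458 Illumina counts, 18.03 CPM (exact 95% interval 17.4 to 18.6). At that share 7.27 Nanopore counts would be drawn on average. FBN1 was at least 2.42-fold lower by Nanopore against the 3-count floor of 7.44 CPM, and at least 1.97-fold lower against the exact upper limit of 9.15 CPM. The exact binomial adjusted p was 0.00421. LOX (ENSG00000113083, chromosome 5, 122063195 to 122078413) had 25 Nanopore counts, 62.0 CPM (40.1 to 91.5), and 3789 Illumina counts, 19.8 CPM (19.1 to 20.4). At that share 7.97 Nanopore counts would be drawn on average. The LOX level was 3.14-fold higher by Nanopore (2.03 to 4.64), with an exact binomial adjusted p of 1.11e-05, and the direction held under every scaling tried.

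BGN (ENSG00000182492, chromosome X, 153494980 to 153509546) had 18 Nanopore counts, 44.6 CPM (exact 95% interval 26.5 to 70.5), and 11261 Illumina counts, 58.7 CPM (57.7 to 59.8). No difference was detectable at this depth (fold 0.760, exact interval 0.450 to 1.20, exact binomial adjusted p of 0.401). With VIM it was one of the 2 tested genes of the set without a call, and these are the genes with the shortest longest coding transcripts, 2353 bases for BGN and 2154 for VIM.

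Length went with the ratio over the set. The lengths of the longest coding transcripts were 11609 bases for FBN1, 8708 for FN1, 8500 for TNC and 7789 for THBS1, and these 4 had the lowest log2 ratios of the 9 tested genes, −4.25, −2.25, −2.06 and −1.34. The FBN1 value is set by the added 1 CPM and was −7.50 with 0.1 CPM and −2.20 with 5 CPM. The log2 ratios of TGFBI (2712 bases) and SPARC (3451 bases) were −1.28 and −0.91. The order was not strict: TGFBI is shorter than SPARC and had the lower ratio, and LOX, with 5076 bases, had a ratio of 1.60. The same fall with length was present in all tested genes. They were divided into 5 groups of like size by union exonic length, and in the group with 8628 bases or more the median log2 ratio was −0.91. FBN1, FN1, TNC and THBS1 belong to that group, and their ratios stood at its percentiles 0.729, 9.23, 11.8 and 31.9. LOX, in the middle group (3967 to 5832 bases, median −0.58), stood at percentile 92.3 of it, VIM at 69.5 and SPARC at 36.8. TGFBI and BGN stood at percentiles 30.2 and 43.9 of their own groups.

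**Figure D2:**
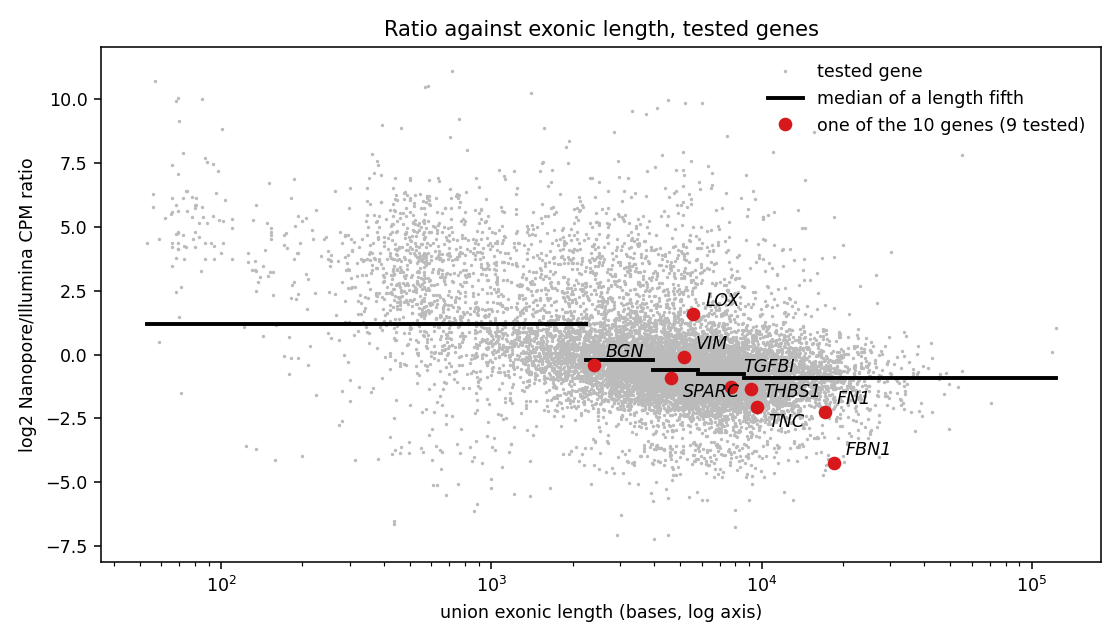
Log2 Nanopore/Illumina CPM ratio against union exonic length on a log axis for the tested genes with an annotated length (grey), with the median of each of 5 length groups (black lines) and the 9 tested genes of the set (red). LOX and VIM lie above the line of their group, and the other red points lie below theirs.

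Dividing the Illumina counts by the length of the longest coding transcript (TPM, the length-divided analogue of CPM) gave, for 4 of the 10 genes, close to the Nanopore count that was observed. For FN1, 21.7 Nanopore counts were expected on that scale and 22 observed. For SPARC the values were 37.0 and 38, for BGN 17.9 and 18, and for TNC 2.01 and 2. None of these 4 passed the exact binomial test on that scale, with fold intervals of 0.635 to 1.53, 0.727 to 1.41, 0.595 to 1.59 and 0.121 to 3.60 in the same order. The 0 counts of FBN1 and POSTN stood against 1.12 and 0.771 expected, so the call of FBN1 was lost (adjusted p = 0.817 by the exact test).

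Other genes of the set kept or gained a difference on the TPM scale of the longest coding transcript. LOX had 25 counts where 2.79 were expected, a fold of 8.95 with an exact interval of 5.78 to 13.2 and an exact binomial adjusted p of 1.46e-14. THBS1 had 52 where 30.3 were expected (fold 1.72, exact interval 1.28 to 2.25, adjusted p of 0.00157), which is the opposite direction from that in CPM. VIM had 700 where 609 were expected (1.15, exact interval 1.07 to 1.24, adjusted p of 0.00128). TGFBI had 161 where 256 were expected (0.628, exact interval 0.535 to 0.733, adjusted p of 1.72e-09) and so stayed higher by Illumina. In sum 3 of the 9 were called higher by Nanopore and 1 higher by Illumina, where 30.3% and 10.3% of all genes tested on that scale were. LOX alone was at least 4-fold higher by Nanopore there (1 of 9, against 14.9% of all), and 0 of 9 were at least 4-fold higher by Illumina (3.73%).

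The choice of length decided most of these calls. With union exonic length, which counts every annotated exon once, VIM and LOX were called higher by Nanopore (2 of 9, against 31.2% of all tested genes) and 0 of 9 higher by Illumina (10.6%). At least 4-fold higher were 1 of 9 by Nanopore (LOX, against 15.2%) and 0 of 9 by Illumina (4.27%). With the mean length of the annotated transcripts, LOX was called higher by Nanopore (1 of 9, against 23.7%), and SPARC, THBS1 and TGFBI higher by Illumina (3 of 9, against 15.8%). With the 1 CPM added, the ratio was at least 4-fold for LOX by Nanopore (1 of 9, against 13.5%) and for FBN1 by Illumina (1 of 9, against 4.67%). The FBN1 ratio there rests on the added 1 CPM alone, since 0 counts were observed where 1.93 were expected, and it did not pass the exact test. LOX was thus called in the same direction on all 4 scales. Which isoforms these cells make cannot be read from counts per gene.

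**Figure D3:**
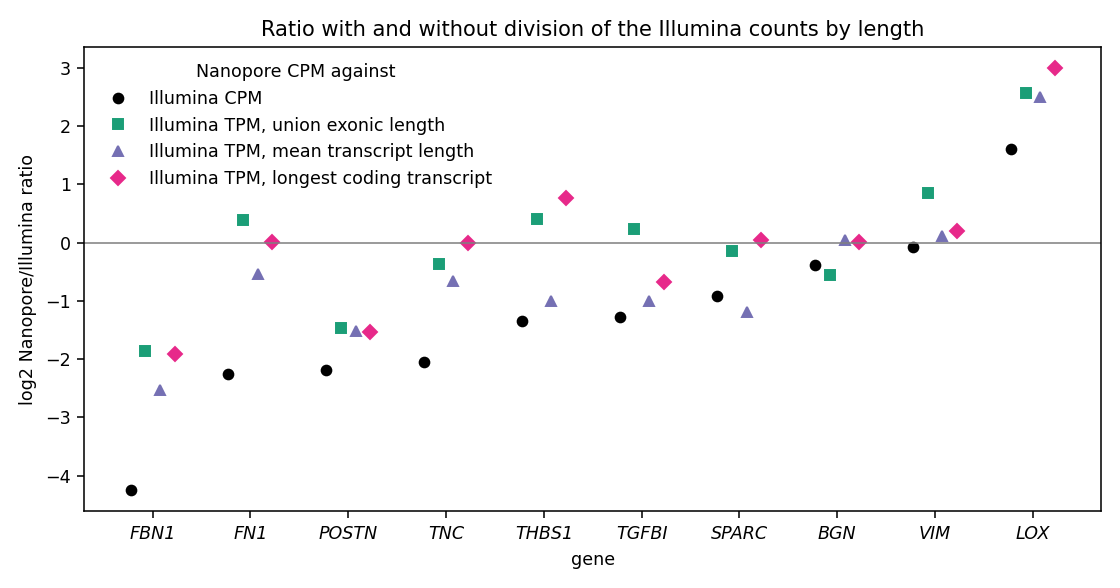
Log2 ratio of Nanopore CPM over Illumina CPM (black circles) and over Illumina TPM by union exonic length (green squares), mean transcript length (purple triangles) and longest coding transcript (pink diamonds), with 1 added to each level, for all 10 genes. The diamonds of FN1, TNC, SPARC and BGN lie at 0, those of FBN1 and POSTN, which had no Nanopore count, lie below it, and all 4 symbols of LOX lie above it.

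The order of the levels within a library was taken from Nanopore CPM, where a read is a strand, and from Illumina TPM, where counts are per length. By Nanopore the order was VIM, TGFBI, THBS1, SPARC, LOX, FN1, BGN and TNC, followed by POSTN and FBN1 without a count. Neighbours were compared by an exact binomial test with adjustment over 8 pairs. VIM and TGFBI differed (adjusted p of 6.96e-80), as did TGFBI and THBS1 (1.47e-13) and BGN and TNC (0.00107) by that exact test. The 4 pairs from THBS1 down to BGN did not differ beyond counting error, and neither did TNC and POSTN. By Illumina TPM with union exonic length the order was VIM, TGFBI, SPARC, THBS1, BGN, FN1, LOX, TNC, FBN1 and POSTN, at 956, 340, 104, 97.2, 66.2, 41.4, 9.56, 6.71, 2.64 and 1.76 TPM. All 9 neighbouring pairs differed beyond counting error there, and of the 8 genes with a Nanopore count 4 had the same rank in both orders (VIM, TGFBI, FN1 and TNC). Part of that order changed with the length used. THBS1 stood above SPARC with mean transcript length, and FN1 above BGN with mean and with longest coding length. These pairs too differed beyond counting error, and the 4 equal ranks belong to union exonic length. LOX stood at rank 5 by Nanopore and at rank 7 by Illumina TPM with any of the 3 lengths.

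A ratio of 2 genes within a library does not depend on how the library is scaled. There were 31.8 VIM counts per FN1 count by Nanopore. The Illumina value was 6.94 in counts and 28.0 per length of the longest coding transcript. For TGFBI the values were 4.35 by Nanopore, 1.89 in Illumina counts and 2.38 per length, and for SPARC 18.4, 10.3 and 16.5. For LOX they were 28.0 by Nanopore, 92.5 in Illumina counts and 218 per length, so it was the gene of the set that stood closer to VIM in the Nanopore library by either Illumina measure.

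Of the 10 genes, 7 have a body that shares bases with another annotated gene on either strand, as do 64.6% of all annotated genes. There are 11 such partners, 10 of which had a count in at least 1 library and 8 in the Nanopore library. Of the 7 partners abundant enough to be tested, 6 were at least 4-fold higher by Nanopore in CPM, where 12.9% of all tested genes were. Among the 6, CLMAT3 (47.1 CPM by Nanopore, 0.266 by Illumina) and THBS1-AS1 (17.4 and 2.35) reached the mean of 5 CPM only through Nanopore. For both, a higher Nanopore level was thus built into being tested. With division of the Illumina counts by union exonic length it was 4 of 7, where 15.2% of all were. Exonic bases are shared by 7 partners with 5 of the genes, and each of the 7 is on the opposite strand. The TruSeq kit and direct RNA reads both keep strand, but how the counting treated it is not given in the sources used here. Reads of a gene and of its opposite-strand partner cannot be told apart in these tables.

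VIM has 2 such partners. VIM-AS1 (ENSG00000229124, 17214239 to 17230018), which shares 656 exonic bases with VIM, had 449 counts by Nanopore and 35695 by Illumina, for a log2 ratio of 2.57. ENSG00000234961 (17233325 to 17234833), a long non-coding RNA gene with 87.7% of its exonic bases inside exons of VIM, had 532 and 28080 counts, a log2 ratio of 3.16 in CPM. With union exonic length these ratios were 2.23 and 1.23. Set against VIM in the same library, they came to 64.1% and 76.0% of its count by Nanopore and to 10.2% and 8.01% by Illumina. Together the 2 partners held 981 Nanopore counts, against 700 for VIM itself. How a read over more than 1 gene was counted is not given. The 981 counts therefore need not be reads separate from each other or from those of VIM.

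THBS1 and FSIP1 (ENSG00000150667, chromosome 15, 39588357 to 39782841), which share 448 exonic bases, had the same Nanopore count, 52, against 63050 and 1034 Illumina counts. Another gene there, THBS1-AS1, had 7 counts by Nanopore and 451 by Illumina, with a log2 ratio of 2.45 in CPM and 0.49 with union exonic length. TNC and DELEC1 also had the same Nanopore count, 2, against 4557 and 4 Illumina counts. SPARC had 38 Nanopore counts and its partner CLMAT3 had 19, against 34079 and 51 by Illumina. For these genes the partner's share of the Illumina count was at most 1.64%.

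LOX, the gene with the highest ratio of the set, overlaps SRFBP1 (ENSG00000151304, chromosome 5, 121961975 to 122075570, plus strand), the gene for a serum response factor binding protein. SRFBP1 had 34 counts by Nanopore and 2162 by Illumina, which is 136% and 57.1% of the LOX count, and a log2 ratio of 2.80 (exact binomial adjusted p of 2.83e-17). Both genes were thus higher by Nanopore, and their shared exonic stretch is 138 bases. The part of SRFBP1 in the LOX value was not tested. BGN and HAUS7 share 537 bases of gene body and 0 exonic bases. HAUS7 had 15 counts by Nanopore and 3635 by Illumina, and its log2 ratio of 0.94 did not pass the exact test (adjusted p of 0.0510).

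**Figure D4:**
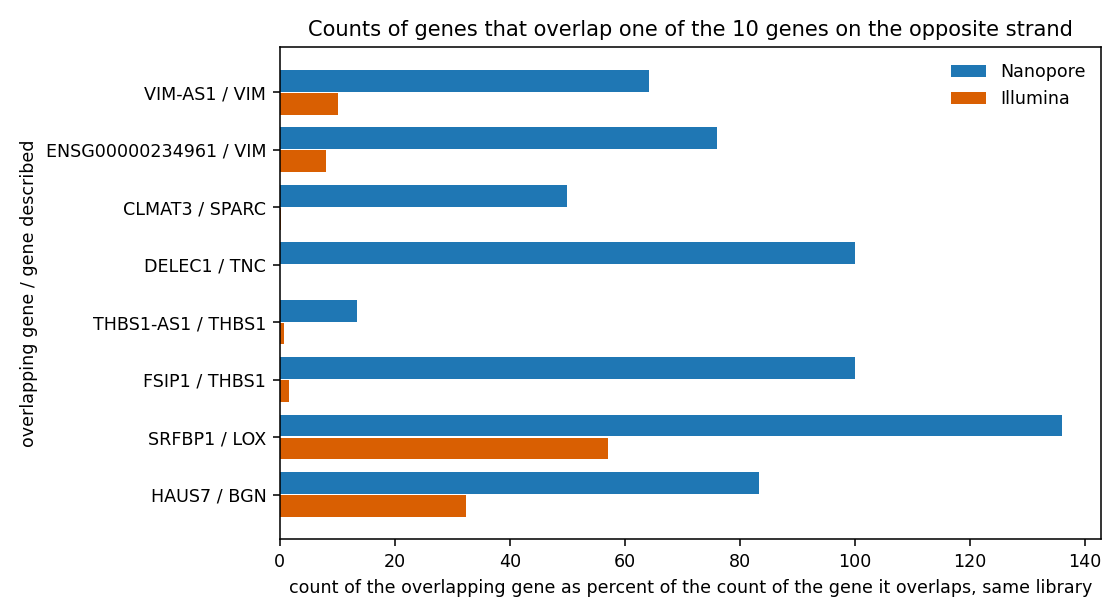
Count of each overlapping gene as a percent of the count of the gene it overlaps, in the Nanopore (blue) and the Illumina library (orange), for the 8 partners with a Nanopore count. The blue bars run from 13.5% for THBS1-AS1 to 136% for SRFBP1, and each exceeds its orange bar.

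Of the 10 coding stretches in which such pairs share exonic bases, 5 are printed, from 4 of the genes, because a read that covers them lies within exons of both genes. They were read from hg38 by coordinate, on the strand of the named gene and 5′ to 3′, with exon numbers counted in the longest coding transcript.
VIM exon 5, shared with ENSG00000234961, chr10:17233770-17233898: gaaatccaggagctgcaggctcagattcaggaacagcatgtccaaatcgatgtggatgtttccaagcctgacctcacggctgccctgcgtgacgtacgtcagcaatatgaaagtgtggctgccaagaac
VIM exon 6, shared with ENSG00000234961, chr10:17234702-17234818: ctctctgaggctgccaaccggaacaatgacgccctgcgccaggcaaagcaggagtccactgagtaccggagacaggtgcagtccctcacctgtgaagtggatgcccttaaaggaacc
THBS1 exon 20, shared with FSIP1, chr15:39594099-39594196: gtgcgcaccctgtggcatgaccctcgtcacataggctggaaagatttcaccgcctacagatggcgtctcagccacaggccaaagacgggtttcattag
TNC exon 4, shared with DELEC1, chr9:115084255-115084383: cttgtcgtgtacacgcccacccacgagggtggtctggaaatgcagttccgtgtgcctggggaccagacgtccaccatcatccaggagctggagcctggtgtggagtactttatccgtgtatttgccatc
LOX exon 3, shared with SRFBP1, chr5:122075404-122075541: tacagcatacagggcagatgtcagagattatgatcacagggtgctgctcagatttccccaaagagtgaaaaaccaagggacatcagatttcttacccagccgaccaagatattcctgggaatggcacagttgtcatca

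Sequence shared with genes elsewhere in the genome was slight. At most 1.06% of the 50-base words of a gene, the value of BGN, also occurred in a transcript of a gene that does not overlap it. For VIM this share was 0.172%, and with the overlapping genes included it was 20.7%. None of the 10 longest coding transcripts aligned to an alternate contig of its own chromosome at up to 5% divergence.

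The genes around this set were described through 5 lists of related genes, by counts and medians only. The shares of all tested genes belong beside these counts. In CPM, 27.2% were called higher by Illumina and 20.2% by Nanopore. With union exonic length the shares were 10.6% and 31.2%, and with the longest coding transcript 10.3% and 30.3%. With mean transcript length they were 15.8% and 23.7%. The list of matricellular relatives has 21 genes, and 7 were tested. CCN1, CCN2, SMOC1 and CCN5 passed as higher by Nanopore (4 of 7) and FSTL1 as higher by Illumina (1 of 7). CCN5, with 5 Nanopore counts (12.4 CPM) and 3.10 CPM by Illumina, reached the mean of 5 CPM only through Nanopore. A higher Nanopore level was thus built into its being tested. The median log2 ratio was 0.35, against −1.28 for the 9 genes above and −0.42 for all tested genes. CCN2, a growth-factor-binding matricellular gene, had 130 Nanopore counts, 322 CPM, and 108 CPM by Illumina, a log2 ratio of 1.57. CCN1 was at 265 and 208 CPM (0.35), and SMOC1, a relative of SPARC, at 94.2 and 36.6 CPM (1.34). FSTL1, another SPARC relative, was at 64.5 and 163 CPM (−1.32). CCN1, CCN2 and SMOC1 stayed higher by Nanopore, and FSTL1 turned to 0.35, with the TPM of the longest coding transcript.

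Of 23 genes of elastic fibres and lysyl oxidases, 11 were tested, 6 were higher by Illumina and 0 higher by Nanopore in CPM, with a median of −1.36. With union exonic length, and also with the longest coding transcript, 0 were higher by Illumina and 2 higher by Nanopore. With mean transcript length 3 were higher by Illumina and 0 by Nanopore. FBN2, the second fibrillin, was at 44.6 CPM by Nanopore and 224 CPM by Illumina (log2 ratio −2.30). It passed as higher by Illumina in CPM but not with union exonic length (log2 ratio 0.39, exact binomial adjusted p of 0.460). LTBP1, which holds latent TGF-beta in the matrix, was at 49.6 and 217 CPM (−2.11). EFEMP1 and FBLN1, of the fibulin family, were at 308 and 251 CPM (0.29) and at 164 and 146 CPM (0.16), and neither passed the test in CPM. With union exonic length both passed as higher by Nanopore (exact binomial adjusted p of 2.73e-08 and 5.07e-13). The list median was 0.29 with the TPM of the longest coding transcript, the other side of 0, but −0.72 with mean transcript length.

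The 15 proteoglycan genes had 8 tested, with 4 higher by Illumina, 0 higher by Nanopore and a median of −0.90 in CPM. The counts were 2 higher by Illumina and 4 by Nanopore with union exonic length, and 1 and 4 with the longest coding transcript. With mean transcript length they were 2 and 1. The syndecans SDC1, SDC4 and SDC3 were at 91.8, 69.4 and 27.3 CPM by Nanopore and at 238, 248 and 122 CPM by Illumina, and AGRN, which encodes the basement membrane proteoglycan agrin, at 96.7 and 130 CPM. Of 9 vimentin relatives and lamins, the 3 tested were LMNA, LMNB2 and LMNB1, all nuclear lamina genes and all higher by Illumina in CPM, at 414, 67.0 and 52.1 CPM by Nanopore against 560, 223 and 191 CPM. LMNA turned to 1.15 with union exonic length, 0.21 with mean transcript length and 0.40 with the longest coding transcript, and on the first and last of these scales 1 of the 3 was called higher by Nanopore. NES, the gene for nestin, which often co-assembles with vimentin, had 0 Nanopore and 1896 Illumina counts. VIM exceeded every gene of that list in Nanopore CPM and in Illumina TPM by union exonic length, where LMNA came next at 186 TPM against 956.

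A Nanopore count was found for 10 receptor genes and an Illumina count for all 11, though some were scarce. ITGB3 had 0 Nanopore and 50 Illumina counts, and CD36 had 1 and 98. Of 11, 7 were tested and 5 were higher by Illumina, 0 by Nanopore, with a median of −0.83 in CPM. With union exonic length 1 was higher by Illumina and 3 by Nanopore, and with the longest coding transcript 2 and 3. With mean transcript length 3 were higher by each. DDR1, among the 5 in CPM, had 2 Nanopore counts (4.96 CPM) and 53.3 CPM by Illumina. It reached the mean of 5 CPM only through Illumina, so a higher Illumina level was built into its being tested. ITGB1 was at 412 CPM by Nanopore and 734 CPM by Illumina, and ITGA5, its partner in the fibronectin receptor, at 81.8 and 452 CPM (log2 ratios −0.83 and −2.45). ITGAV, whose dimers bind fibronectin and TGFBI, was at 67.0 and 112 CPM, and ITGB5 at 57.0 and 95.1 CPM. With the TPM of the longest coding transcript the ratio of ITGA5 was −1.20, and those of ITGB1, ITGAV and ITGB5 were 0.60, 1.21 and 0.57. The list medians of the proteoglycans and receptors also turned, to 0.95 and 0.57 on that scale, where the median of all tested genes was 0.40 and that of the 9 genes of the set 0.018.

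**Figure D5:**
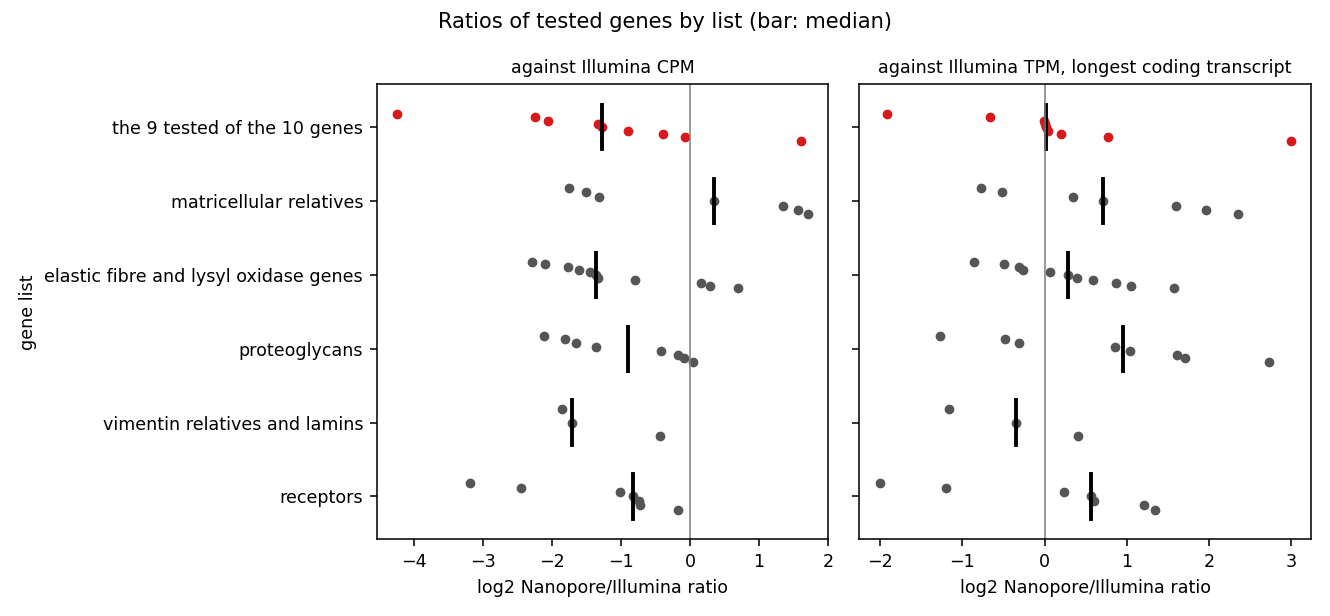
Log2 Nanopore/Illumina ratio of each tested gene by list, with the median as a bar, against Illumina CPM (left) and against Illumina TPM by the longest coding transcript (right). On the left the median of the 9 tested genes is −1.28, and on the right 0.018. LOX is the red point farthest to the right in both panels, and FBN1 the one farthest to the left.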

How the data were processed

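Counts per gene of the Nanopore and the Illumina library were used, each its own group by its title. The values deposited by the authors are whole-number counts, not normalized. The submitters' processing notes name minimap2 2.11-r797, HISAT2 2.1.0, featureCounts and hg38, with no role for each. The options, the annotation release and the treatment of strand, multiple overlaps and multiple mapping are not given in the sources used here, nor is any step behind the suffix in the name of the Nanopore column.

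Lengths, positions and overlaps came from GENCODE release 44, which holds 58207 of the 58735 identifiers. Counts were scaled to 1000000 per library. Intervals are exact 95% Poisson (levels) or Clopper-Pearson (folds) and cover counting error only, since amplified reads are not independent molecules. With 1 library per platform no edgeR or DESeq2 model could be fitted, so the exact conditional binomial test was used, after it was tested on simulated data, with Benjamini-Hochberg adjustment over genes averaging 5 CPM or more. TPM divided Illumina counts by length and was scaled over annotated genes. TMM factors came from edgeR 4.0.16 in R 4.3.3, alignments to alternate contigs from minimap2 2.31. The named genes are the set itself, the overlapping genes with a count and the 4 most abundant genes of each related list. CCN5, TP63, CDH1, EPCAM, ITGB3, CD36, DDR1, COL3A1, PDGFRA, PDGFRB and THY1 fall outside that rule and were chosen after their values were seen. The set and the lists were chosen with earlier results of these data known.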

Additional observations from a re-analysis of the deposited data

How the results depend on the processing

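No paired analysis was possible because each platform has 1 library and the labels carry no replicate numbers; for the same reason no library could be left out. Depth limits the Nanopore values: TNC had 2 counts there, FBN1 and POSTN 0. The filters tried and pseudocounts of 0.1 or 5 CPM turned no gene of the set. The pseudocounts did move the genes without a Nanopore count, FBN1 to −7.50 and −2.20 and POSTN to −5.19 and −0.77. TMM and median-ratio scaling moved the median log2 ratio of all tested genes by 0.084 and 0.12 and turned VIM to 0.014 and 0.053. Division by union exonic length turned VIM to 0.86, FN1 to 0.39, THBS1 to 0.40 and TGFBI to 0.23. Mean transcript length turned VIM to 0.12 and BGN to 0.040. The longest coding transcript turned VIM to 0.20, FN1 to 0.018, SPARC to 0.039, THBS1 to 0.77 and BGN to 0.0065.

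Of the set, genes called higher by Nanopore numbered 2 with union length and 3 with the longest coding transcript, against 1 in CPM. Those called higher by Illumina numbered 0, 3 and 1 with union, mean and longest coding length, against 6. At least 4-fold higher by Nanopore was 1 with each length, against 0, and by Illumina 0, 1 and 0, against 3. FBN1, whose ratio rests on the added 1 CPM, is that 1 by Illumina and is among the 3. In CPM the 3 became 2 with TMM scaling, median-ratio scaling and a pseudocount of 5 CPM. TNC dropped out there, at −1.98, −1.94 and −1.53. Among the 2810 tested genes that overlap no other, FN1 and TGFBI were the 2 of the set: 0 were called higher by Nanopore (8.54% of all), 2 higher by Illumina (31.3%) and 1 at least 4-fold higher by Illumina (10.1%). Among the 7582 genes averaging 20 CPM or more, 1 of 7 of the set was at least 4-fold higher by Illumina (6.33% of all).

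Over all genes, calls higher by Nanopore came to 3856 with union length, 1504 at a minimum of 20 CPM and 240 without overlapping genes. Calls higher by Illumina came to 1314, 1951 and 1276 with union, mean and longest coding length, and 879 without overlapping genes. Genes at least 4-fold higher by Nanopore came to 749 at 20 CPM and 86 without overlaps. Genes at least 4-fold higher by Illumina came to 527, 577 and 461 with the 3 lengths, 284 without overlaps, 480 at 20 CPM, 1599 at 1 CPM, 1599 with no filter and 449 with a pseudocount of 5 CPM. Fewer genes were tested at 20 CPM and without overlaps, and more at 1 CPM and with no filter. A larger added value makes every ratio smaller. For the changes with length the cause was not tested.

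List medians moved to 0.39 and 0.29 (elastic fibre genes, union and longest coding length), 0.88, 0.10 and 0.95 (proteoglycans, union, mean and longest), 0.52, 0.11 and 0.57 (receptors, in that order), and −0.73 and −0.35 (vimentin relatives and lamins, union and longest). With mean transcript length the median of the elastic fibre genes was −0.72 and that of the vimentin relatives and lamins −1.50.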

Other observations

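Of the 8 fibroblast markers, some of which are matrix genes like those of the set, 2 had a Nanopore count and 8 an Illumina count. DCN, a small proteoglycan related to biglycan, had 10 Nanopore counts and 5075 Illumina counts, and COL1A2 had 1 and 148. COL1A1, a chain of type I collagen, had 0 and 946, LUM 0 and 236, COL3A1 0 and 44, PDGFRA 0 and 41, PDGFRB 0 and 27, and THY1 0 and 21. Among the epithelial genes that EMT is known to lower, CDH1 had 3 Nanopore and 4634 Illumina counts and EPCAM 3 and 770. Without an untreated library these are levels and not changes.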
